A study of Mus musculus with 15 samples.

Results

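The HNF4, CDX and GATA transcription factors that set intestinal identity were followed through RNA sequencing of mouse intestinal organoids. The 7 members, Hnf4a, Hnf4g, Cdx1, Cdx2, Gata4, Gata5 and Gata6, were taken by gene symbol from the 43629 genes of the count table, with earlier results of these data known, and all 7 passed the filter on low expression. Organoids are small epithelial cultures grown from crypts, here of the proximal small intestine of C57B6/129 mice. WT comprised 5 libraries grown in ENR medium, which supplies EGF, Noggin and RSPO1. Of these, 4 came from APC flox/flox lines numbered 1, 2, 5 and 6, labelled WT, and 1 was Dox naive (WT), a culture that carried the doxycycline-inducible Cas9 and guide RNAs but had not received doxycycline. Apc comprised 4 libraries of Apc delta/delta organoids whose titles carry the same numbers 1, 2, 5 and 6, and P-Rspo3 comprised 4 libraries of organoids with the Ptprk-Rspo3 rearrangement, labelled 15d, 4d, M and F, grown as polyclonal populations after Cas9 cutting. Both mutant groups were grown in EN medium, which lacks RSPO1, so mutation and medium cannot be told apart in either comparison with WT. Apc and P-Rspo3 shared the medium but not their origin. Per the paper, P-Rspo3 organoids arose by doxycycline treatment of organoids with inducible Cas9, whereas Apc libraries carry the numbers of the APC flox/flox lines. Mouse line, Cas9 and doxycycline cannot be told apart from mutation between these 2 groups. Labels give no age or animal for each culture, so the p-values measure the spread between these cultures, which may be partly technical.

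HNF4A and HNF4G are nuclear receptors that bind the same DNA motif and switch on genes for lipid uptake, brush border and nutrient transport in enterocytes, the absorptive cells of the villus. CDX1 and CDX2 are homeodomain proteins of the posterior gut. CDX2 keeps the epithelium intestinal rather than gastric, and CDX1 is known as a direct target of Wnt signalling. GATA4 is the factor of the proximal small intestine and holds back ileal genes there, GATA6 runs along the whole gut and acts in crypt cells as well as in enterocytes, and GATA5 is a further member found in gut endoderm. APC is part of the complex that destroys beta-catenin, and its loss switches on Wnt target genes through TCF/LEF proteins without any ligand, whereas R-spondins such as RSPO3 enhance Wnt signalling only where Wnt ligand is present.

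To show what lies at the starts of these genes, the 250 bases upstream of each RefSeq start are given for the members with a promoter in the RefSeq table, Hnf4a with 2 starts, Cdx2 and Gata5 (build GRCm38.p6, written in the direction of the gene). Capitals mark matches, on either strand, to any of 4 short motifs. The motif of the TCF/LEF proteins, the partners of beta-catenin, was searched as CTTTGA. For the GATA family the letters were AGATAA, read on both strands. For the HNF4 receptors they were CAAAGT, which can overlap those of the TCF/LEF proteins on the other strand. For the CDX proteins they were CAATAAA. The upstream start of Hnf4a lies at chr2:163506607-163506856 (plus strand), its downstream start at chr2:163546905-163547154 (plus strand), Cdx2 at chr5:147307250-147307499 (minus strand) and Gata5 at chr2:180334680-180334929 (minus strand).
Hnf4a upstream start: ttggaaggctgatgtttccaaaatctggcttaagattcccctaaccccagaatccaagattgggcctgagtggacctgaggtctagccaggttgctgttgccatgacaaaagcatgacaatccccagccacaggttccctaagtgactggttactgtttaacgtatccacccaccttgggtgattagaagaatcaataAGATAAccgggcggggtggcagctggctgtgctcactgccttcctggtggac
Hnf4a downstream start: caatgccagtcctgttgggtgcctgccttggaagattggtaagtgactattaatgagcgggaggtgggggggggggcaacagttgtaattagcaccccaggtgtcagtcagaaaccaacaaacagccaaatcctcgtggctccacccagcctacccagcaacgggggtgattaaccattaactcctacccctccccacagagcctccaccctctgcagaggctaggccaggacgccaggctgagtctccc
Cdx2: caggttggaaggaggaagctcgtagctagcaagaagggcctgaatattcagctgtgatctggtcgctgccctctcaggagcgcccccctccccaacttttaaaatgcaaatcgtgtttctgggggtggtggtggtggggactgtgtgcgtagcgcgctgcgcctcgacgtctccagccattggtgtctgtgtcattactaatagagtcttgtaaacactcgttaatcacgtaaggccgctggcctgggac
Gata5: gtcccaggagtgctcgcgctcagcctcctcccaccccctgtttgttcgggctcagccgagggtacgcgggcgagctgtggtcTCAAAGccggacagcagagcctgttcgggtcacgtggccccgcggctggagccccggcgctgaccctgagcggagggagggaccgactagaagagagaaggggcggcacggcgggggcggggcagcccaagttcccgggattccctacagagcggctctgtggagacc
These RefSeq starts are not those of the gene coordinates given below, which are from GENCODE. The GENCODE starts of Hnf4a, Cdx2 and Gata5 lie a little further upstream, inside the upstream Hnf4a window and the other 2 windows. Distances here are counted from the RefSeq start. The upstream window of Hnf4a held 1 GATA match, 52 bases before that start, across the GENCODE start of the gene, and the Gata5 window 1 TCF/LEF match on the other strand, 168 bases before the start. The downstream window of Hnf4a and that of Cdx2 held no match and stand in lower case throughout. None of the 4 windows held the HNF4 or the CDX letters. Among all 32851 promoter windows of this length, 13.8% held the TCF/LEF letters, 9.99% the GATA letters, 12.6% the HNF4 letters and 4.20% the CDX letters, so a single match of this kind is common, and whether any factor binds there was not tested. GC content was 51.2% and 57.6% in the upstream and downstream windows of Hnf4a, 55.2% in that of Cdx2 and 70.0% in that of Gata5, beside a median of 52.4% over all windows.

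The 13 libraries held 28902729 to 35528495 counted reads each, and no pair within a group agreed within sampling noise. Rspo3, the ligand gene placed under the Ptprk promoter, had 0 to 1 counts in WT, 7 to 57 in Apc and 539 to 1079 in P-Rspo3, as the P-Rspo3 label states. Apc had an FPKM of 11.6 to 22.3 in WT and 28.3 to 30.5 in Apc. Counts per gene take in exons outside the deleted part, so this value checks nothing about the deletion. Axin2, a feedback target of Wnt signalling, had an FPKM of 24.7 to 51.6 in WT, 147.6 to 172.6 in Apc and 22.6 to 35.2 in P-Rspo3. Epithelial markers were high everywhere, and the summed FPKM of Epcam, Cdh1, Krt8, Krt18, Krt19 and Vil1 was 1877 to 2297 in WT, 1800 to 2284 in Apc and 1863 to 2284 in P-Rspo3.

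Within each of the 3 families, the members stood unequally far from WT in Apc organoids. Cdx1 was 18.2-fold lower and Hnf4g 12.1-fold lower than in WT, Gata6 was 3.09-fold, Hnf4a 2.42-fold and Gata4 1.5-fold lower, Gata5 was 1.54-fold higher, and Cdx2 did not pass the test. P-Rspo3 organoids, which grew in the same medium as Apc organoids but expressed far more Rspo3, had no member that passed the test against WT. Fold changes are those fitted by edgeR's quasi-likelihood test to counts under TMM scaling, which sets libraries to a common level over most genes, and levels are FPKM, the authors' estimate per transcript length and sequencing depth. Genes were called where the adjusted p (Benjamini-Hochberg, over every gene tested) was under 0.05 and the log2 fold change exceeded 1 in either direction. Against WT, 0 of the 7 members were called higher in Apc and 4 were called lower, where 12.2% of the 16749 genes tested were called higher and 14.1% lower. By the adjusted p alone, 1 member was higher and 5 were lower, beside 30.0% and 29.0% of all genes. The median log2 fold change was -1.27 over the members and 0.00058 over all genes. In bulk RNA, fewer cells of a type and less RNA per cell cannot be told apart. Beside these falls, the summed FPKM of 18 enterocyte genes was 5732 to 12948 in WT, 1193 to 1494 in Apc and 5180 to 8424 in P-Rspo3. That of 15 stromal, endothelial and immune markers was 1.15 to 1.82 in WT, 5.08 to 12.6 in Apc and 1.19 to 1.86 in P-Rspo3. The part of either in the results on the 7 genes was not tested.

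**Figure D1:**
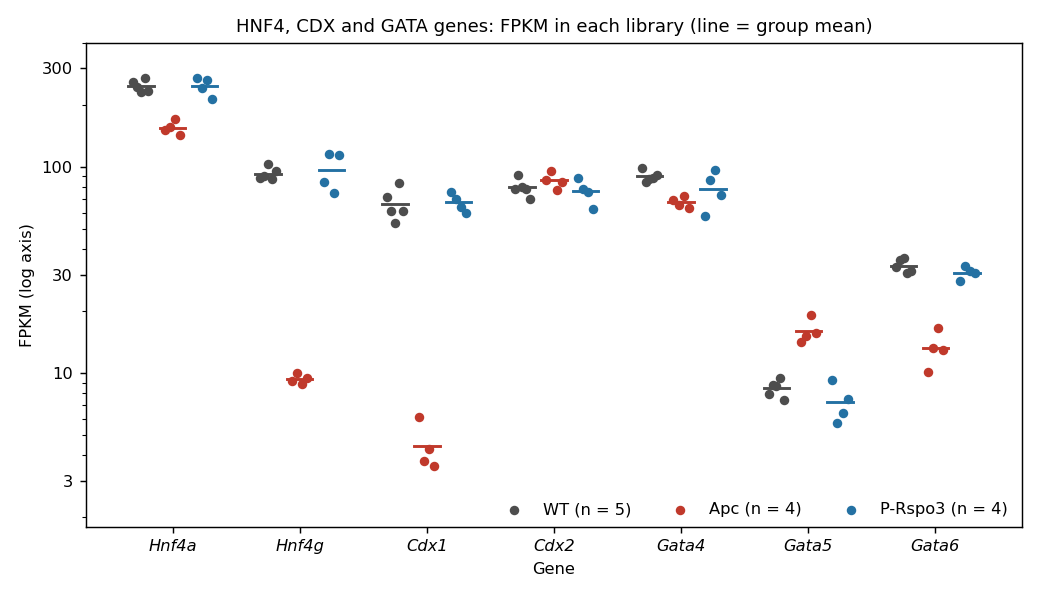
FPKM on a log axis of the 7 genes in each of the 5 WT, 4 Apc and 4 P-Rspo3 libraries (points), with the mean of each group (line). Apc points of Hnf4a, Hnf4g, Cdx1 and Gata6 lie below all WT and P-Rspo3 points, those of Gata5 lie above them, and those of Cdx2 lie among them.

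Hnf4a (ENSMUSG00000017950, chromosome 2, 163506808 to 163572910, plus strand) was the most abundant member in every group. Its FPKM was 257 in WT line 1, 243 in line 2, 229 in line 5, 268.5 in line 6 and 234 in the dox-naive culture. In Apc it was 151, 155, 171 and 142 in lines 1, 2, 5 and 6. Every Apc library was below every WT library. The mean fell from 246 ± 16.2 (SD, n = 5) to 155 ± 12.2 (SD, n = 4), and the fitted log2 fold change was -1.27 (SE 0.06, edgeR adjusted p = 8.59e-08). The size of the fall depended on the scale, at 2.42-fold in the fit to counts and 1.59-fold in the ratio of mean FPKM. On the FPKM scale Hnf4a passed the adjusted p but not the fold threshold (limma on log2(FPKM + 1), log2 fold change -0.67, adjusted p = 3.1e-05).

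Hnf4g (ENSMUSG00000017688, chromosome 3, 3508030 to 3658052, plus strand), its paralogue of narrower tissue range, fell by more. WT lines 1, 2, 5 and 6 and the dox-naive culture had an FPKM of 87.9, 90.0, 103, 87.3 and 95.2. Apc lines 1, 2, 5 and 6 had 9.16, 10.0, 8.83 and 9.49. Every Apc library was far below every WT library, and the 4 Apc values lay close together. The mean was 92.6 ± 6.44 (SD, n = 5) in WT and 9.38 ± 0.514 (SD, n = 4) in Apc, and the log2 fold change was -3.59 (SE 0.09, edgeR adjusted p = 1.49e-09). Line by line, FPKM was 9.60-fold, 8.97-fold, 11.6-fold and 9.20-fold lower in Apc than in WT for lines 1, 2, 5 and 6.

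With the unequal falls, the makeup of the HNF4 pair shifted towards Hnf4a. Hnf4g made up 27.4% ± 2.58 (SD, n = 5) of the summed HNF4 FPKM in WT and 5.74% ± 0.60 (SD, n = 4) in Apc. The ratio within a library does not depend on how libraries are scaled, but it was taken on FPKM alone. Without TMM, the log2 ratio of Apc to WT means for Hnf4a was -0.67 on FPKM and -0.98 on counts. For Hnf4g it was -3.30 on both. The log2 ratio of Hnf4a to Hnf4g was 1.41 ± 0.19 (SD, n = 5) in WT, 1.16 to 1.62 over the libraries, and 4.04 ± 0.17 (SD, n = 4) in Apc, 3.90 to 4.28. The difference of 2.63 had a two-sided exact permutation p of 0.0159, the smallest that 4 libraries against 5 allow, and 0.0429 after Benjamini-Hochberg adjustment over 9 ratio tests. When each Apc library was paired with WT of its own line, the line being the replicate block, the difference was 2.60 with an exact sign-flip p of 0.125, the smallest that 4 pairs allow.

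Cdx1 (ENSMUSG00000024619, chromosome 18, minus strand) showed the largest difference of the members. Its FPKM was 71.5, 61.2, 53.3 and 84.0 in WT lines 1, 2, 5 and 6 and 61.3 in the dox-naive culture. In Apc it was 6.12, 3.77, 4.31 and 3.55 in lines 1, 2, 5 and 6. The highest Apc value stood far below the lowest WT value. The mean was 66.3 ± 11.8 (SD, n = 5) in WT and 4.44 ± 1.17 (SD, n = 4) in Apc, with a log2 fold change of -4.18 (SE 0.18, edgeR adjusted p = 3.07e-08). Apc libraries still had 241 to 429 counts of Cdx1, so the gene was measured well above the level of a few reads. The fall in FPKM ran from 11.7-fold in line 1 to 23.7-fold in line 6.

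Cdx2 (ENSMUSG00000029646, chromosome 5, 147300805 to 147307270, minus strand), its paralogue and the main keeper of intestinal fate, had an FPKM of 78.3, 91.0, 80.0, 78.0 and 70.0 in WT lines 1, 2, 5 and 6 and the dox-naive culture. In Apc it had 86.1, 96.0, 77.6 and 84.5. The groups overlapped. The mean was 79.5 ± 7.51 (SD, n = 5) in WT and 86.1 ± 7.62 (SD, n = 4) in Apc. On counts the log2 difference was -0.17 (95% interval -0.37 to 0.04, edgeR adjusted p = 0.155), and on FPKM its sign was the opposite, 0.11 (limma on log2(FPKM + 1), adjusted p = 0.264). Without a scaling by TMM the median gene itself stood 0.29 higher in Apc on the log2 scale, and relative to that median Cdx2 was at -0.17 on both counts and FPKM. On the fitted scale the interval left out a fall to less than 0.772 of the WT level.

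Cdx1 made up 45.3% ± 5.12 (SD, n = 5) of the summed CDX FPKM in WT and 4.93% ± 1.31 (SD, n = 4) in Apc. The log2 ratio of Cdx2 to Cdx1 was 0.27 ± 0.30 (SD, n = 5) in WT and 4.30 ± 0.39 (SD, n = 4) in Apc, a difference of 4.03 with an exact permutation p of 0.0159 and an adjusted p of 0.0429 over the 9 ratio tests. The pair stood near parity in WT, whereas in Apc Cdx2 exceeded Cdx1 by 14.0-fold to 25.4-fold over the 4 libraries. In the fit that pairs lines as a replicate block the difference was 4.01, with a sign-flip p again at its smallest possible value of 0.125.

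**Figure D2:**
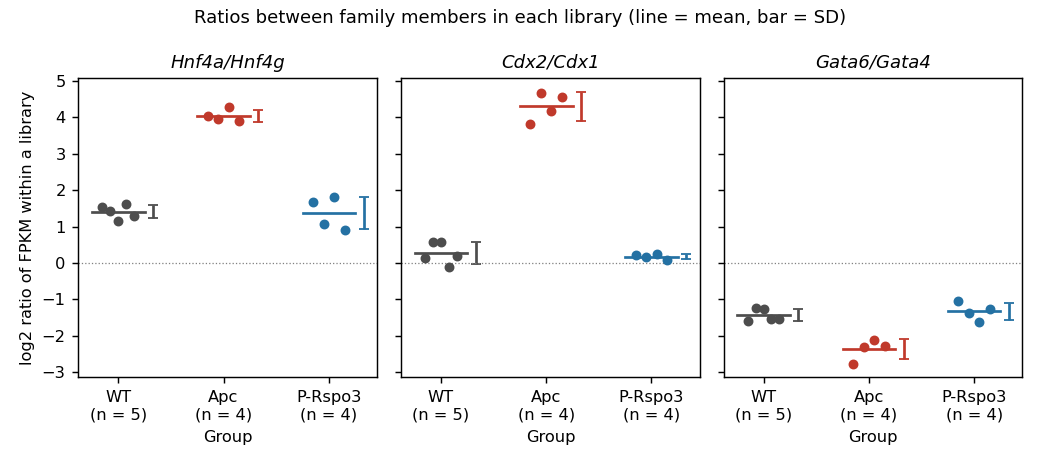
The log2 ratio of FPKM within each library for Hnf4a to Hnf4g, Cdx2 to Cdx1 and Gata6 to Gata4, in 5 WT, 4 Apc and 4 P-Rspo3 libraries (points), with the mean (line) and SD (bar). Apc libraries stand apart from both other groups in all 3 panels, with means of 4.04, 4.30 and -2.37, while P-Rspo3 overlaps WT.

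The GATA genes moved in different directions. Gata6 (ENSMUSG00000005836, chromosome 18, plus strand) had an FPKM of 32.7, 35.5, 36.2, 30.6 and 31.2 in WT lines 1, 2, 5 and 6 and the dox-naive culture. In Apc it had 10.1, 13.3, 16.5 and 13. No Apc value reached the WT range. The log2 fold change was -1.63 (SE 0.13, edgeR adjusted p = 2.17e-06), from a mean of 33.2 ± 2.52 (SD, n = 5) to 13.2 ± 2.63 (SD, n = 4). The fall in FPKM was 3.25-fold in line 1 and 2.19-fold in line 5.

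Gata4 (ENSMUSG00000021944, chromosome 14, 63198922 to 63271692, minus strand) was the most abundant of the 3 in each group. WT lines 1, 2, 5 and 6 and the dox-naive culture had an FPKM of 98.8, 84.4, 87.6, 88.6 and 91.2. Apc lines 1, 2, 5 and 6 had 68.7, 65.6, 72.3 and 63.5. The groups did not overlap, but the fall was small. Its log2 fold change was -0.59 (SE 0.07, edgeR adjusted p = 4.98e-05), short of the fold threshold. Mean FPKM was 90.1 ± 5.41 (SD, n = 5) in WT and 67.5 ± 3.84 (SD, n = 4) in Apc.

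Gata5 (ENSMUSG00000015627, chromosome 2, 180325133 to 180334699, minus strand) was the scarcest member in WT, and the only one that rose in Apc by the adjusted p. Its FPKM was 7.91, 8.80, 8.66, 9.50 and 7.38 in WT lines 1, 2, 5 and 6 and the dox-naive culture, and 14.2, 15.2, 19.1 and 15.6 in Apc. No WT value reached those of Apc, and FPKM was higher in all 4 lines, from 1.64-fold in line 6 to 2.2-fold in line 5. The log2 fold change was 0.62 (SE 0.09, edgeR adjusted p = 0.000169), short of the fold threshold.

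Gata4 made up a like share of the summed GATA FPKM in both groups, 68.3% ± 2.38 (SD, n = 5) in WT and 69.9% ± 2.90 (SD, n = 4) in Apc, while the shares of the others crossed beneath it. Gata6 made up 25.2% ± 2.03 (SD, n = 5) in WT and 13.6% ± 1.92 (SD, n = 4) in Apc, and Gata5 6.42% ± 0.742 (SD, n = 5) and 16.5% ± 1.04 (SD, n = 4). The log2 ratio of Gata6 to Gata4 was -1.44 ± 0.16 (SD, n = 5) in WT and -2.37 ± 0.27 (SD, n = 4) in Apc, a difference of -0.93 (exact permutation p = 0.0159, adjusted p = 0.0429 over the 9 ratio tests). Paired by line as a replicate block it was -0.96, with a sign-flip p of 0.125.

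Among the levels themselves, Hnf4a stood above all other members in every library of each group. In WT its mean was higher than that of 98.0% of the 16272 genes whose mean FPKM reached 0.1, and even Gata5 was above 55.1% of them. In WT the order by mean FPKM was Hnf4a, Hnf4g, Gata4, Cdx2, Cdx1, Gata6 and Gata5. The range of Hnf4g overlapped that of Gata4, that of Gata4 overlapped Cdx2, and that of Cdx2 overlapped Cdx1. Whether these neighbours differ within a library was not tested. The log2 ratio of Cdx2 to Cdx1 ran from -0.11 to 0.59 over the WT libraries. Gata6 and Gata5 were each separate from the member above. In Apc the order was Hnf4a, Cdx2, Gata4, Gata5, Gata6, Hnf4g and Cdx1, and there the ranges of Gata5 and Gata6 alone overlapped. Hnf4g thus stood in the second place in WT and in the sixth in Apc, and Cdx1 in the fifth and the last. P-Rspo3 had the same order of means as WT, with overlap between the same neighbours over libraries. Within each P-Rspo3 library Cdx2 was nevertheless above Cdx1, with a log2 ratio of 0.07 to 0.24.

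To compare cultures kept in the same medium, Apc was set against P-Rspo3. This comparison shares its Apc libraries with that against WT, so the values of the 2 comparisons are not independent. The same 4 members were called lower and 0 were called higher, where 13.4% of the 16456 genes tested were called higher and 13.3% lower. By the adjusted p alone, 1 was higher and 5 were lower, beside 28.7% and 27.7% of all genes. Log2 fold changes were -1.19 (SE 0.07) for Hnf4a, -3.65 (SE 0.17) for Hnf4g, -4.16 (SE 0.17) for Cdx1 and -1.47 (SE 0.14) for Gata6, with edgeR adjusted p of 1.87e-06, 3.95e-07, 2e-07 and 2.25e-05. Both groups were grown without added RSPO1, but their own R-spondin expression was not alike. The median FPKM of Rspo3 was 10.8 in P-Rspo3 cultures, beside 0.344 in Apc cultures. The part of R-spondin supply in these falls was not tested. Cdx2 differed by -0.06 (95% interval -0.27 to 0.15, edgeR adjusted p = 0.623).

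Gata5 was 1.86-fold higher in Apc than in P-Rspo3 (log2 fold change 0.89, SE 0.15, edgeR adjusted p = 0.000882). The P-Rspo3 culture 15d was the highest of its group for Gata5, with an FPKM of 9.27, and without it the log2 fold change was 1.02 and the gene was called. Gata4 barely passed, with -0.39 (SE 0.15, edgeR adjusted p = 0.0496), and its FPKM overlapped between the groups. When each of the 8 libraries was left out in turn, 7 fits lost it, with adjusted p of 0.0629 to 0.125 in edgeR. The exception was the fit without the P-Rspo3 culture 15d, the lowest for Gata4 with an FPKM of 57.5, where the log2 fold change was -0.53 (edgeR adjusted p = 0.00155). All 3 ratios within families also differed between Apc and P-Rspo3, by 2.68 for Hnf4a to Hnf4g, 4.13 for Cdx2 to Cdx1 and -1.05 for Gata6 to Gata4. Each had an exact permutation p of 0.0286, the smallest for 4 libraries against 4, and an adjusted p of 0.0429.

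To ask whether these factors stood differently in cultures with the Ptprk-Rspo3 rearrangement, P-Rspo3 was compared with WT. The groups also differ in medium, and most WT libraries came from APC flox/flox lines. The part of the rearrangement alone therefore cannot be told apart here. All 7 members had P-Rspo3 means close to WT. No member was called or passed the adjusted p in edgeR, in either direction, where 0.00625% of the 15992 genes tested were called higher, a single gene, Rspo3, and 0% lower. None had an unadjusted p under 0.05, against 2159 of all genes, and none passed in DESeq2. Adjusted p ran from 0.433 for Gata5 to 0.995 for Cdx1. The intervals bound the size of a difference between the groups that could have been missed. For Hnf4a the log2 difference was -0.07 (95% interval -0.23 to 0.09), for Cdx2 -0.09 (-0.30 to 0.12), for Cdx1 -0.01 (-0.25 to 0.23) and for Gata6 -0.14 (-0.35 to 0.07). They were wider for Hnf4g at 0.07 (-0.26 to 0.40), Gata4 at -0.18 (-0.47 to 0.12) and Gata5 at -0.25 (-0.55 to 0.04).

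**Figure D3:**
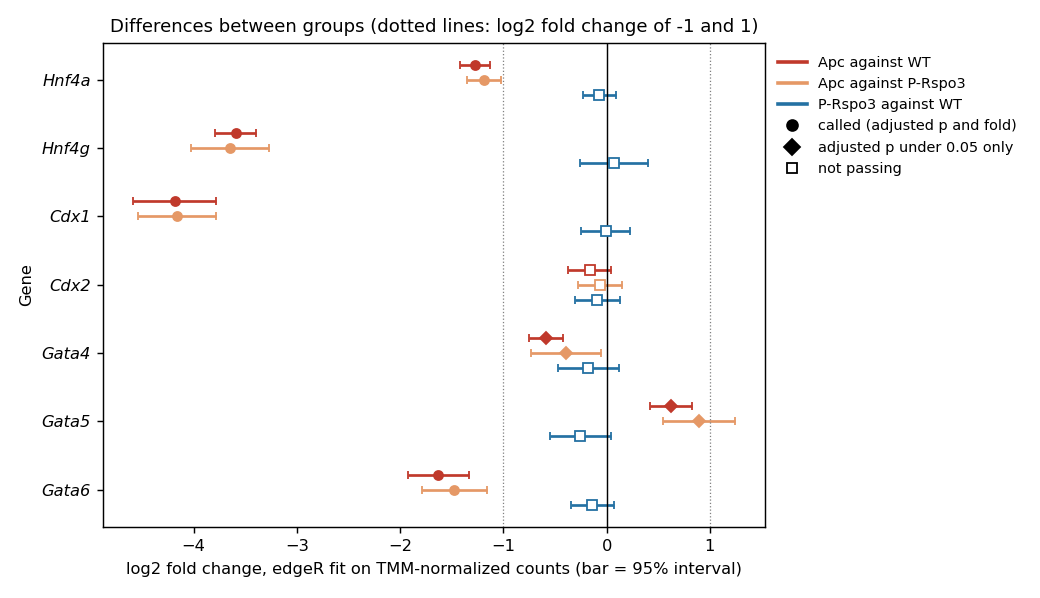
Fitted log2 fold change of each gene in the 3 comparisons, with 95% intervals (bars) from edgeR on TMM-normalized counts. Circles were called, diamonds passed the adjusted p only and open squares did not pass. Hnf4a, Hnf4g, Cdx1 and Gata6 lie beyond -1 in both comparisons of Apc, and every interval of P-Rspo3 against WT takes in 0.

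Members differed in how much they varied among the P-Rspo3 cultures, and whether that spread differs from WT was not tested. The SD was 21.3% of the mean for Hnf4g, 21.4% for Gata4 and 21.5% for Gata5, beside 6.95%, 6.0% and 9.73% in WT. Hnf4g had an FPKM of 84.5 in 15d, 116 in 4d, 74.4 in M and 114 in F, and Hnf4a had 268, 241, 263 and 214 in the same cultures. In FPKM the cultures with the higher Hnf4g, 4d and F, had the lower Hnf4a. That order depended on the scale. On counts under TMM scaling, relative to the library total, Hnf4a was at 1142 in 4d and 1130 in 15d. The log2 FPKM ratio of the pair ran from 0.91 to 1.82 with an SD of 0.45, beside 0.19 in WT. The Cdx pair moved together instead in FPKM. Cdx1 had 75.6, 70.0, 64.2 and 59.6 and Cdx2 had 88.3, 78.3, 75.7 and 62.6 in 15d, 4d, M and F. Both were highest in 15d and lowest in F. On the TMM-scaled counts Cdx1 was instead lowest in M, at 134 beside 137 in F. The log2 FPKM ratio of Cdx2 to Cdx1 varied by an SD of 0.08, beside 0.30 in WT. Gata4 had 57.5, 86.3, 96.2 and 73.4, Gata5 9.27, 5.72, 6.38 and 7.49, and Gata6 27.8, 33.2, 31.2 and 30.5, so 15d was the lowest culture for Gata4 and Gata6 and the highest for Gata5. None of the 3 ratios passed the test against WT, with differences of -0.05, -0.10 and 0.11 and exact permutation p of 0.444 to 0.841 (0.554 to 0.841 after adjustment over the 9 ratio tests).

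Scaling of the libraries bears on all of these values. Without TMM the median gene stood 0.29 higher in Apc than in WT on the log2 scale, in CPM (counts relative to the library total) as in FPKM, and 0.02 higher in P-Rspo3. Relative to that median, 5 members took nearly the same value on both scales, with -0.17 for Cdx2, -3.59 for Hnf4g, -4.19 for Cdx1, -1.63 and -1.62 for Gata6 and 0.62 and 0.63 for Gata5 on counts and FPKM. Hnf4a and Gata4 differed between the scales, at -1.28 on counts and -0.96 on FPKM for Hnf4a and -0.59 and -0.71 for Gata4. The cause of that difference was not tested. The split of calls over all genes also moved, as 46.4% of the genes called in Apc against WT were higher in the fit to counts and 55.6% in limma on log2(FPKM + 1).

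**Figure D4:**
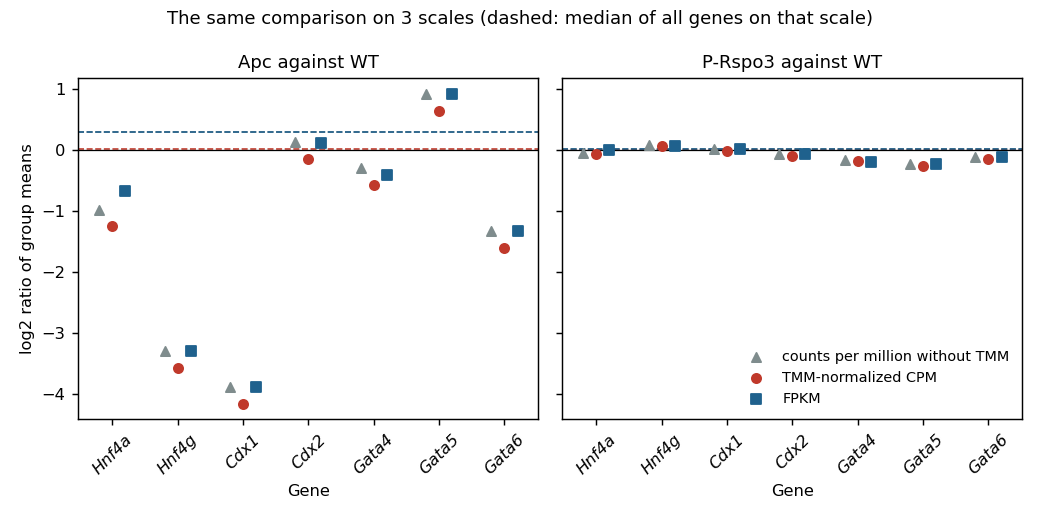
The log2 ratio of group means of each gene on 3 scales, CPM without TMM (triangles), TMM-normalized CPM (circles) and FPKM (squares), for Apc against WT and P-Rspo3 against WT. Dashed lines mark the median of all genes on each scale, which is 0.29 on the scales without TMM for Apc. Cdx2 changes sign between scales, while Hnf4g, Cdx1 and Gata6 lie far below 0 on each.

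Of 13 further endoderm transcription factors, 12 could be tested. Among them, 2 were called higher and 2 lower in Apc than in WT, with a list median of -0.15. Of all genes tested, 12.2% were called higher and 14.1% lower, so the counts of this list stood near those shares. Isx, an intestinal homeobox factor that controls vitamin A uptake, had 1 to 59 counts in WT and 2649 to 4016 in Apc, with a log2 fold change of 7.40 (SE 0.62, edgeR adjusted p = 2.52e-06). In both comparisons with Apc, Isx reached the filter on low expression only through its Apc libraries, so it could hardly have been called lower. Foxa1, a pioneer factor of the gut endoderm, rose by 1.49 (SE 0.11). Nr5a2, a nuclear receptor of crypt cells, fell by 2.92 (SE 0.26), and Onecut2, a factor of the proximal intestine, fell by 2.56 (SE 0.15). Klf5 was lower by the adjusted p but short of the fold threshold, at -0.82, and the epithelial factor Elf3, the most abundant of the list, was at 0.09 (edgeR adjusted p = 0.581). Against P-Rspo3 the same counts, 2 higher and 2 lower, were called among 11 tested, with Isx at 7.55, Foxa1 at 1.21, Nr5a2 at -2.81 and Onecut2 at -2.27. The shares over all genes were 13.4% higher and 13.3% lower there, for this and the lists below.

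Of 8 further GATA and CDX family members and cofactors, only 2 could be tested against WT, and both were called lower in Apc. Of all genes tested, 14.1% were called lower, and the list median was -2.36. Ppargc1a, a coactivator of HNF4A, had a log2 fold change of -1.88 (SE 0.28, edgeR adjusted p = 0.000178), and Nr0b2, a repressor of nuclear receptors, had 1 to 20 counts in WT and 0 to 6 in Apc (-2.85, SE 0.90, edgeR adjusted p = 0.0179). Nr0b2 reached the filter on low expression only with its WT libraries, so it could hardly have been called higher. Gata1 and Cdx4 had at most 1 count in any WT or Apc library. Gata2 had 0 to 1 counts in WT and 3 to 47 in Apc, and Gata3 0 to 2 and 2 to 15, too few to enter the test. Zfpm1, the GATA cofactor, had 3300 to 4987 counts in WT and 2878 to 3294 in Apc and has no FPKM row, so it was not tested. Against P-Rspo3 only Ppargc1a could be tested, and it was called lower at -1.09 (SE 0.22, edgeR adjusted p = 0.00248).

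Enterocyte genes that take input from HNF4, CDX or GATA factors were far lower in Apc. Of 18 tested against WT, 16 were called lower and 1 higher, beside 14.1% and 12.2% of all genes, with a list median of -4.60. Apoa4, an apolipoprotein of chylomicrons, fell by 12.46 (SE 0.68) on the log2 scale, from 16072 to 65268 counts in WT to 4 to 18 in Apc. Apoa1 fell by 10.84 (SE 0.57). Apoc3 had 0 to 3 counts in Apc and was at least 1728-fold lower, against a floor of 3 counts per library. Genes of the brush border differed in size of change. The disaccharidase gene Sis fell by 9.91 (SE 0.45), whereas that of the microvillus protein Vil1 fell by 1.26 (SE 0.12). Cubn, a receptor for vitamin B12 uptake, was the one called higher, at 2.25 (SE 0.78, edgeR adjusted p = 0.0289), with a mean FPKM of 0.52 in Apc. In both comparisons with Apc, Cubn reached the filter on low expression only through its Apc libraries, so it could hardly have been called lower. Lgals4 passed the adjusted p but not the fold threshold, at -0.95. Against P-Rspo3, 17 of 18 were called lower and Cubn was called higher, and between P-Rspo3 and WT none of 17 was called by edgeR or DESeq2, with 5 at an unadjusted p under 0.05. The largest difference there was in Apoa1, at -1.19 (SE 0.35, edgeR adjusted p = 0.19).

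To place the factors beside the regional genes of the gut, 2 short lists were read. Of all genes tested, 14.1% were called lower in Apc than in WT and 12.2% higher. Of 5 duodenal and jejunal genes, 3 were called lower in Apc than in WT and none higher, with a list median of -4.04. Lct, the lactase gene, which is also in the enterocyte list, fell by 8.82 (SE 0.74), Cybrd1, a duodenal iron reductase, fell by 6.90 (SE 0.78) and Pdx1, a duodenal homeobox factor, fell by 4.04 (SE 0.64). The most abundant of them, the iron exporter Slc40a1, passed the adjusted p but not the fold threshold at -0.96, and Ada was at -0.31 (edgeR adjusted p = 0.313). Of 6 ileal and colonic genes, 4 were tested, 2 were called higher in Apc and none lower, and the list median was 0.52, or 0.56 with bounds in place of fitted values. Car1, a colonic carbonic anhydrase, had 0 counts in every WT library and 7 to 131 in Apc, at least 14.6-fold higher against a floor of 3 counts per library (edgeR adjusted p = 0.00502). It reached the filter on low expression through its Apc libraries alone, so it could hardly have been called lower. Slc10a2, the ileal bile acid carrier, rose by 1.20 (SE 0.28, edgeR adjusted p = 0.00374) from a mean FPKM of 0.27 to 0.78. Hoxb13, of the distal colon, had 0 counts in every library. Against P-Rspo3, 3 of the 5 duodenal and jejunal genes were called lower and 1 of 3 ileal and colonic genes, Car1, was called higher.

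Several stomach genes were detected in Apc organoids that were near 0 in WT. Of 16 listed, 10 were tested, and 6 were called higher and 2 lower, beside 12.2% and 14.1% of all genes, with a list median of 3.12. In both comparisons with Apc, the genes Sox21, Muc6, Muc5ac, Ctse and Vsig1 reached the filter on low expression only through their Apc libraries. They could hardly have been called lower, so the count and the median partly reflect the filter. Sox21, a transcription factor of the foregut, had 3 to 29 counts in WT and 3986 to 6294 in Apc, a log2 fold change of 8.71 (SE 0.40, edgeR adjusted p = 4.98e-08). The mucin genes Muc6 and Muc5ac were also higher, Muc6 by 5.17 (SE 0.45) and Muc5ac, with 0 counts in every WT library, by at least 39.3-fold. Their mean FPKM in Apc was 0.845 and 0.287. The other 3 called higher were Ctse at 4.20, Vsig1 at 3.81 and Tff2 at 2.44. Tff2 had 37 to 228 counts in Apc and 5 to 28 in WT. Anxa10 and Pgc, both gastric, were lower instead, at -3.42 (SE 0.54) and -1.75 (SE 0.46). Of the other 8, Gkn1, Gkn2, Tff1, Atp4b and Barx1 had at most 3 counts in every library of each group, Sox2 had 0 counts in WT and 1 to 10 in Apc, and Cldn18 had 2 to 5 and 5 to 12. Atp4a was at 0.16 (edgeR adjusted p = 0.596). Against P-Rspo3, 6 of 9 tested were called higher and 1 lower, with Sox21 at 5.70 and Muc6 at 4.73.

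**Figure D5:**
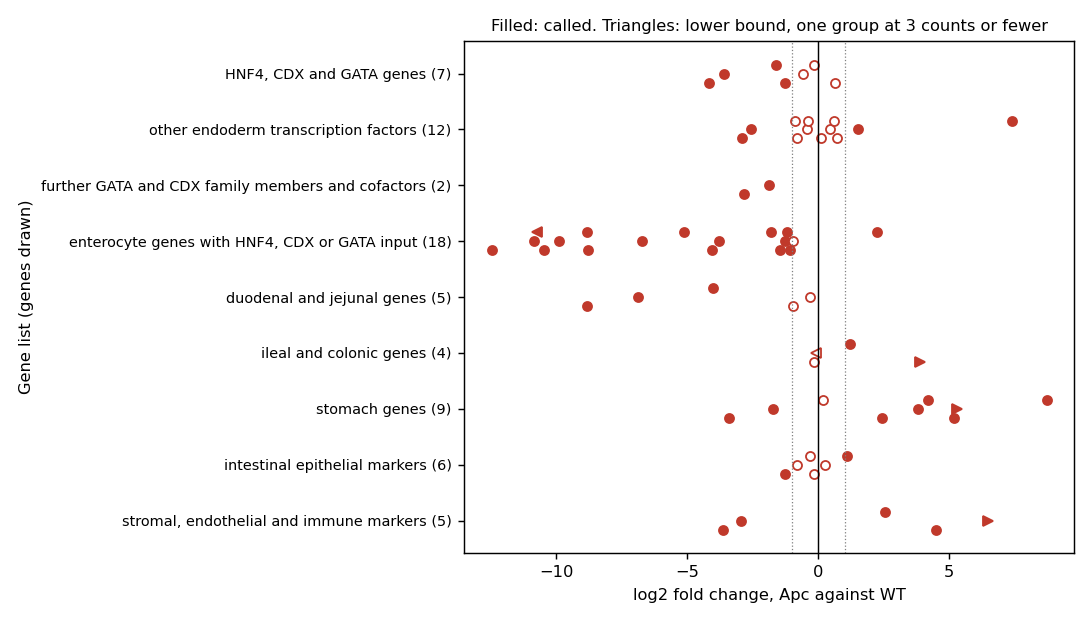
Log2 fold change in Apc against WT for the 7 factors and for the genes of 8 lists that were tested, 1 point a gene. Filled points were called, triangles are lower bounds where a group had at most 3 counts in every library, and Tff1, with at most 3 counts in both groups, is not drawn. Enterocyte genes lie mostly far below 0 while stomach genes lie on both sides, with Sox21 at 8.71.

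Markers of stromal, endothelial and immune cells were scarce but not equal between groups. Of 15 listed, 5 were tested against WT, of which 3 were called higher in Apc and 2 lower, with a list median of 2.55. The shares over all genes were 12.2% higher and 14.1% lower. Cdh5, the cadherin of endothelium, had 0 counts in WT and 217 to 372 in Apc, Pdgfra had a mean FPKM of 0.211 in Apc and 0.00736 in WT, and the macrophage marker Cd68 had 6.24 and 0.780. Pdgfrb and Pecam1 were the 2 called lower, at -3.63 and -2.95. Cdh5 and Pdgfra reached the filter on low expression only through their Apc libraries, and Pdgfrb and Pecam1 only through WT. Each of them could hardly have been called the other way. Of the 10 not tested, Col1a2, Col3a1, Dcn, Lum, Des, Kdr and Adgre1 had at most 3 counts in every library. The other 3 were Col1a1, with 0 to 7 counts in WT and 1 to 15 in Apc, Acta2, with 0 to 2 and 1 to 9, and Ptprc, with 0 to 24 and 0 to 2. Among epithelial markers, Krt18 was called higher, by 1.11, and Vil1 lower, with a list median of -0.25 over the 6 tested, while Krt19 at -0.81, Krt8 at -0.31, Epcam at -0.18 and Cdh1 at 0.24 passed the adjusted p but not the fold threshold. Between P-Rspo3 and WT, no gene of any of these 8 lists was called by edgeR. In the enterocyte list 5 genes were at an unadjusted p under 0.05, and in the others 0 or 1, while DESeq2 called 1 stomach gene and 1 stromal marker. The list medians there were -0.16 for endoderm factors, -0.88 for cofactors, -0.12 for enterocyte, -0.62 for duodenal and jejunal, 0.56 for ileal and colonic, -0.65 for stomach, 0.03 for epithelial and 0.20 for stromal genes.

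To see which genes varied most like the members called in Apc against WT, each of 13547 other protein-coding genes was compared over the 13 libraries by the root mean square difference of centred log2 CPM. Nearest to Hnf4a were Irf2, Fuk and Ndrg3, at 0.0735, 0.0744 and 0.0802. Nearest to Hnf4g were Btnl4 at 0.176, Chpt1 at 0.190 and Dgat1, an enzyme of triglyceride synthesis, at 0.190. Nearest to Cdx1 were Ccl25, the chemokine of the small intestine, at 0.237, Lrig3 at 0.315 and Coq8a at 0.334. Nearest to Gata6 were Aldh2, the mitochondrial aldehyde dehydrogenase, at 0.129, Pheta1 at 0.136 and Pi4k2b at 0.146. All 12 genes were lower in Apc than in WT, which follows from their choice by likeness to members called lower there. Ccl25 went from a mean FPKM of 252 in WT to 16.3 in Apc and Dgat1 from 363 to 35.4. All distances use the same 13 libraries, and they hold the gap between Apc and the other groups. Among the members, Hnf4g was the gene ranked the 23rd nearest to Cdx1, and Hnf4a the 120th nearest to Gata6.

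Transcripts that overlap the members were read separately, since the strand setting of the counting is not given. Hnf4aos, on the opposite strand of Hnf4a and sharing no exonic base with it, had 71 to 125 counts in WT, 52 to 86 in P-Rspo3 and 0 to 5 in Apc (log2 fold change of Apc against WT -5.59, SE 0.56, edgeR adjusted p = 9.85e-06). 1010001N08Rik, opposite to Gata6, had 466 to 536 counts in WT, 444 to 527 in P-Rspo3 and 99 to 124 in Apc, a log2 fold change of -2.50 (SE 0.14, edgeR adjusted p = 1.66e-07). Both were thus lower in Apc, like the gene they overlap. 1010001N08Rik shares 93 exonic bases with Gata6 and had 13.9% as many counts as Gata6 in WT. Gata5os, which shares 258 exonic bases with Gata5, had 14 to 25 counts in WT and 45 to 72 in Apc and passed the adjusted p (0.99, SE 0.25, edgeR adjusted p = 0.00536). Reads in the shared bases cannot be assigned with certainty to either strand. On the strand of their host genes, Gm25881 within Hnf4a had 0 to 4 counts in any library, and Gm37000 and Gm23237 within Hnf4g had 0.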

How the data were processed

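Libraries of polyA RNA from mouse intestinal organoids were sequenced. Per the labels and the study's methods, STAR was used by the authors for alignment to GRCm38, HTSeq 0.6.0 gave the read counts of genes and Cufflinks 2.2.1 the FPKM. The annotation release and strand setting are not given in the sources used here. The deposited count table holds raw counts for 43629 genes, and the deposited FPKM table holds values for 43437 of them. Symbols came from GENCODE M21 for 42462 genes. The 7 members and the gene lists were chosen with earlier results of these data known.

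Of 15 deposited libraries, 13 were grouped by genotype label. In the other 2, titles and genotype labels conflict, and they entered no comparison. A gene entered a comparison where 4 or more of its libraries reached an FPKM of 0.1, and was tested with edgeR 4.0.16 (quasi-likelihood test, TMM, R 4.3.3) and adjusted by Benjamini-Hochberg. A gene near 0 in a group can enter through the other group alone, and can then hardly be called the opposite way. Calls needed an adjusted p under 0.05 together with a log2 fold change beyond 1 in either direction. Ratios of log2 FPKM, with 0.01 added, were compared by two-sided exact permutation tests (scipy 1.17.1). On counts simulated for Apc against WT over 16749 genes, 190 of 200 genes changed by 2 on the log2 scale were called, with 7 false calls. The changed genes were few, split equally between directions and not at low counts. The simulation therefore does not cover as broad a change as in these data, nor changes in genes at low counts. Alternatives were DESeq2 1.42.0, limma 3.58.1 on log2(FPKM + 1) and log2(FPKM + 0.1), other filters, 1 fit of all 3 groups, other assignments of the 2 conflicting libraries and each library left out.

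The titles give Apc and WT libraries the same 4 line names. Deviations from the group means correlated by 0.0163 to 0.200 within a line (median 0.0944) and by a median of -0.0309 between lines. The pairing rests on those names. Depth was 28902729 to 35528495 counts, and floors of 3 counts cover counting error only.

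In each list and comparison, up to 3 genes called in each direction with the largest change were named, or the most abundant gene where none was called. The 3 nearest genes of each member called, and overlapping transcripts, were also named. Other genes named, among them Axin2, Elf3, Klf5, Lgals4, Vil1, Slc40a1, Ada, Epcam, Cdh1, Krt8, Krt19, Ctse, Vsig1, Tff2, Cldn18, Atp4a, Col1a1, Acta2, Ptprc, Gata1, Gata2, Gata3, Cdx4, Zfpm1, Sox2 and markers at or near 0 counts, were chosen after their values were seen. Some genes of the lists are counted but not reported by name here. Sequences are from RefSeq (GRCm38.p6), in which 3 of the 7 members matched.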

Additional observations from a re-analysis of the deposited data

How the results depend on the processing

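Hnf4g, Cdx1 and Gata6 kept their direction and their call in both comparisons with Apc under every alternative run, with log2 fold changes against WT of -3.66 to -3.17, -4.37 to -3.63 and -1.74 to -1.29. Hnf4a was not called by limma on FPKM, at -0.67 in both comparisons. Cdx2 took the opposite sign there, at 0.11 and 0.12 against WT and 0.18 and 0.18 against P-Rspo3 with 1 and 0.1 added. The count of members called higher was 1 in place of 0 by the adjusted p alone in both comparisons, and against P-Rspo3 also by limma with either value added and without the P-Rspo3 culture 15d (0 to 1 over the libraries left out). In P-Rspo3 against WT no member was called under any alternative. There Cdx1 was at 0.034 and 0.035 by limma with 1 and 0.1 added and at -0.068 to 0.072 with 1 library left out. Hnf4g was at -0.040 to 0.18 with 1 left out and at -0.0027 with the 2 conflicting libraries assigned by genotype label, where the log2 ratio of Hnf4a to Hnf4g was at 0.062. That ratio was at -0.20 to 0.11 with 1 library left out.

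With 1 library left out, the ratio differences of Apc against WT were 2.55 to 2.68 for Hnf4a to Hnf4g, 3.91 to 4.19 for Cdx2 to Cdx1 and -1.01 to -0.80 for Gata6 to Gata4, and against P-Rspo3 2.53 to 2.83, 4.01 to 4.29 and -1.14 to -0.91. Where a group of 4 fell to 3, the adjusted exact permutation p was 0.0857, since fewer libraries were compared. With the line as a replicate block they were 2.60, 4.01 and -0.96 (exact sign-flip p = 0.125, the smallest for 4 pairs), and the block changed the call of none of the 7 members. Over all genes it called 1979 higher and 2240 lower, beside 2048 and 2364 in all libraries and 2013 and 2279 without the dox-naive culture, which has no line number.

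Over all genes, calls in Apc against WT were 1184 higher and 1650 lower at an FPKM of at least 1, and 1418 and 1132 by limma on log2(FPKM + 1). Against P-Rspo3 they were 1264 and 1533, and 1430 and 1124. By limma with 0.1 added, 59.9% and 61.2% of calls were higher, beside 46.4% and 50.3%. Calls in P-Rspo3 against WT were 1 and 0, but 55 and 173 by DESeq2, 11 and 63 with 3 groups in 1 fit, 166 and 100 without the dox-naive culture and 0 and 0 with NAIVE_F in WT, and 0 to 3 higher and 0 to 11 lower otherwise. The cause of these differences was not tested. Genes at a few counts are limited by depth.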

Other observations

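Both libraries whose title and genotype label conflict entered no comparison. LIPO had an FPKM of 219 for Hnf4a, 119 for Hnf4g, 70.9 for Cdx1, 69.9 for Cdx2, 83.2 for Gata4, 6.07 for Gata5 and 34.5 for Gata6. NAIVE_F had 243 for Hnf4a, 88.2 for Hnf4g, 81.4 for Cdx1, 79.4 for Cdx2, 105 for Gata4, 6.30 for Gata5 and 39.2 for Gata6. Their log2 ratios of Hnf4a to Hnf4g were 0.88 and 1.46, of Cdx2 to Cdx1 -0.02 and -0.04, and of Gata6 to Gata4 -1.27 and -1.42.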
